A study of Mus musculus with 8 samples.

Results

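The 10 genes described here encode parts of the insulin and insulin-like growth factor (IGF) signalling system of the liver: the ligand Igf1, the receptors Ghr and Insr, the adaptors Irs1 and Irs2, the transcription factor Foxo1, and the carrier proteins Igfbp1, Igfbp2, Igfbp4 and Igfals. They were found by name among 24408 named genes, and each was represented by the transcript model with the largest summed level over the libraries. All 10 were among the 10946 genes with enough reads to be tested. The samples were livers of wild-type (WT) C57/BL6 mice, of unstated sex and age, entrained to a light-dark cycle over a week and moved into constant darkness a day before collection. Polyadenylated RNA was sequenced every 6 h from circadian time (CT) 23 to 65, in hours on the animals' own clock, with 1 library per time from the pooled RNA of 3 animals. The 8 times fall on 2 internal days and give 4 phases with 2 libraries each. The phase called CT23, late in the subjective night, is CT23 with CT47. CT5, at subjective midday, is CT29 with CT53. CT11, late in the subjective day, is CT35 with CT59, and CT17, at subjective midnight, is CT41 with CT65.

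Growth hormone acts on hepatocytes through its receptor, GHR, and drives the production of IGF1, most of which circulates in complexes with IGF-binding proteins and the acid-labile subunit encoded by Igfals. Insulin binds the insulin receptor, which phosphorylates the adaptors IRS1 and IRS2 and so activates PI3 kinase and AKT. AKT keeps FOXO1 out of the nucleus, and nuclear FOXO1 raises genes of the fasted liver, Igfbp1 among them. Feeding is concentrated in the night in mice, and the hours since the last meal are known to alter insulin levels.

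Levels are given as reads per kilobase of transcript and per M (mega) reads (RPKM). The scale rested on 11.7 to 13.9 M reads in 7 libraries and on 22.9 M in CT35. CT35 also stood apart in the intron share of gene reads (14.7% in CT35 against 19.8 to 22.4% in the other 7 libraries), in its yield of spliced reads (64.5 junction reads per 100 reads, 41.4 to 49.5 elsewhere) and in how closely its values followed other libraries (median r 0.960, against 0.973 to 0.979). Hepatocyte markers summed to between 44038 RPKM (CT23) and 72087 RPKM (CT35). The part of this and the other marker lists in the results was not tested. The 8 pancreatic markers summed to 1.54 to 5.04 RPKM, and Prss1, Prss2, Pnlip, Amy2a5 and Gcg were at 0 in all libraries. Cholangiocyte markers summed to 48.1 RPKM in CT35, against 15.7 to 24.9 RPKM in the other libraries, and lymphocyte and blood markers to 20.8 (CT65) to 47.6 RPKM (CT35). Macrophage markers were highest at CT29 (113 RPKM), and endothelial and stellate markers at CT53 (107 and 79.8 RPKM). No 24-h component was called among the markers tested (1.84% of all genes tested were called), which were 7 of 8 for hepatocytes, 8 of 8 each for macrophages, endothelial cells and stellate cells, 4 of 8 each for cholangiocytes and lymphocytes, and 1 of 8 for pancreas.

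The alternative exons that the junction reads turned on are shown first. They are, 5′ to 3′ on the strand of the gene and in lower case throughout, the 36-base exon of Insr (GRCm38, chr8:3181702-3181737, minus strand), the 52-base late exon of Igf1 (GRCm38, chr10:87915298-87915349, plus strand) and the coding part of the last exon of the short form of Ghr (GRCm38, chr15:3327607-3327686, minus strand). The sequences were taken from GENCODE transcripts, in which each exon was found by gene, length and neighbouring exons.
Insr exon: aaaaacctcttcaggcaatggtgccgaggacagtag
Igf1 exon: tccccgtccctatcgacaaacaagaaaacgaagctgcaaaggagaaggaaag
Ghr exon: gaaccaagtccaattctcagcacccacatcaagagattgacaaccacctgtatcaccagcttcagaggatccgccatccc
The Insr exon keeps the reading frame and encodes 12 residues, whereas the 52 bases of the Igf1 exon are no multiple of a codon, so including it changes the frame of the end of the precursor.

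The promoters of Igfbp1 and Irs1 are shown because these genes had the smallest p-values for a 24-h component. The 250 bases before the start site come from RefSeq (GRCm38.p6; Igfbp1 chr11:7197537-7197786, plus strand; Irs1 chr1:82291440-82291689, minus strand). Capitals mark matches to CAAAACA, the core of the insulin response element, on either strand, and to the E-box CACGTG.
Igfbp1 promoter: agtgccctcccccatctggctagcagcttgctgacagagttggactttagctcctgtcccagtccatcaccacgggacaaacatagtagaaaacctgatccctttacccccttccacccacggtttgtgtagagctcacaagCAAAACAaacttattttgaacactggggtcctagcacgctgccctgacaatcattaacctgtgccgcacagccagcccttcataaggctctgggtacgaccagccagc
Irs1 promoter: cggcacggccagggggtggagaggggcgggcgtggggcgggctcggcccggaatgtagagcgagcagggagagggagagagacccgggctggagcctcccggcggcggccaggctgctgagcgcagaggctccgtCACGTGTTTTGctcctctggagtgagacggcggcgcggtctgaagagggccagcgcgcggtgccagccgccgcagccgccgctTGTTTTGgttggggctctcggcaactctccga
The first capital run of Irs1 holds an E-box and an insulin response element that overlap. Among 13 promoter windows, which belong to the genes other than Insr and each run from 250 bases before to 50 after the start site, CAAAACA was found in those of Igfbp1, Irs1 and Irs2, against 6.28% of all 32851 windows. CACGTG was found in Igfbp2, Irs1 and Irs2 (7.15% of all windows). The STAT5 motif TTCNNNGAA (8.30%), the FOXO motif GTAAACA (3.65%) and the ROR and REV-ERB motif TAGGTCA (2.61%) were found in windows of Igfals, and the D-box TTATGTAA (0.938%) in none of the 13. These are matches of letters, not sites of binding.

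The comparison of clock phases asked which of the 10 genes followed a 24-h course. None of them passed the test. A cosine and a sine of 24 h were fitted to log2(RPKM + 0.5) with limma, and adjusted p-values (Benjamini-Hochberg over all genes tested) were under 0.05 for 0 of 10 genes, against 1.84% of all genes tested. Unadjusted p-values were under 0.05 for 3 of the 10 (Igfbp1, Irs1 and Insr), against 15% of all genes. This count depends on the transcript model. With the model of most reads, chosen after seeing the data, limma also gave unadjusted p = 0.0397 for Igfbp2 and 0.0311 for Igfbp4. The share of all genes under that choice is not given here. edgeR called none of the 10, and DESeq2 called Igfbp1 (adjusted p = 0.0393). The median fitted peak-to-trough difference was 0.56 on the log2 scale over the 10 genes and 0.40 over all genes tested. In simulated data of this design, limma recovered 12 of 100 genes given a 2-fold course and 91 of 100 given a 4-fold course. Most of the 10 had fitted courses smaller than 2-fold. The simulated data gave a course to few of the 10946 genes and held no library set apart like CT35. How far these rates hold in this series was not tested. With single pools, the p-values rest on how far libraries lay from the fitted curve, and the spread between animals was not measured. In whole liver, a lower level through fewer cells of a type and through less RNA per cell cannot be told apart.

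**Figure D1:**
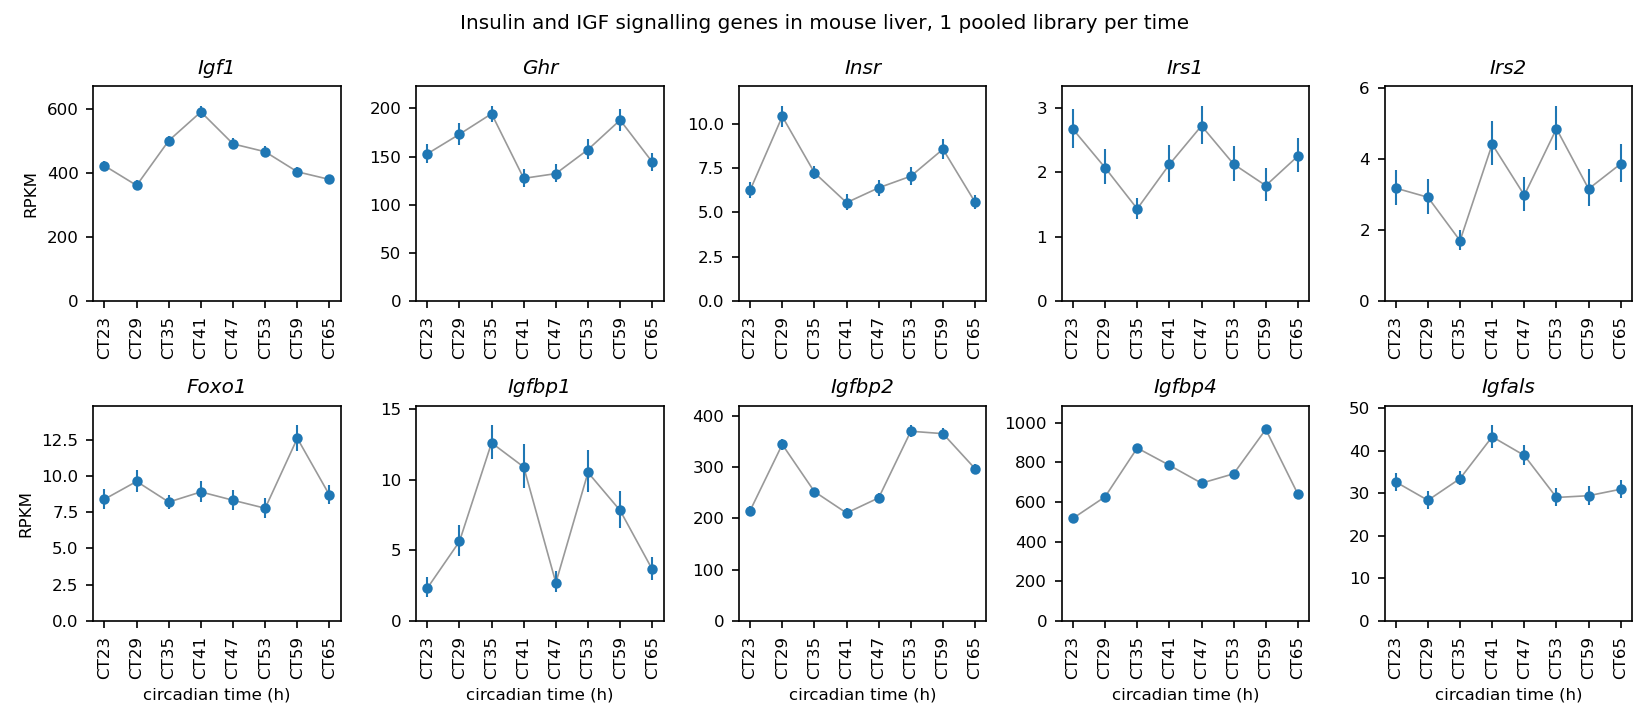
RPKM of the 10 genes (vertical axes, from 0) at each circadian time in hours (horizontal axes), 1 pooled library per point, with exact Poisson 95% intervals as bars, which cover counting error only. Igfbp1 was lowest at CT23 (2.32 RPKM) and CT47 (2.70 RPKM), and Irs1 was highest at the same times.

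By level per length the 10 genes spanned from Igfbp4, at 730.1 ± 144 RPKM, to Irs1, at 2.15 ± 0.42 RPKM (SD, n = 8 libraries at different times). The order was Igfbp4, Igf1, Igfbp2, Ghr, Igfals, Foxo1, Insr, Igfbp1, Irs2 and Irs1. The ranges of neighbours did not overlap between Igfbp2 and Ghr, Ghr and Igfals, or Igfals and Foxo1, and overlapped between all other neighbours. In the models chosen, Igfbp4 was nonetheless above Igf1, and Igf1 above Igfbp2, in all 8 libraries, whereas Insr exceeded Igfbp1 in 5 of 8. The levels of Igf1, Ghr, Igfbp2 and Igfbp4 depend on the transcript model, because the rule took short models there. Igf1 averaged 452 RPKM over a model of 510 bases and 49.7 RPKM over the model of 7121 bases that held the most reads. Ghr averaged 159 RPKM over 472 bases and 66.9 RPKM over 4175 bases. The models of Igfbp2 and Igfbp4 differed less. Igfbp2 averaged 287 RPKM in the short and 219.7 RPKM in the long model, and Igfbp4 730.1 and 503 RPKM. Over the models with most reads the order changed. There Igf1 (44.6 to 55.5 RPKM) lay below both Ghr (58.1 to 78.7 RPKM) and Igfbp2 (163 to 288 RPKM).

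Igf1, the growth hormone-dependent ligand, lies on chromosome 10 (plus strand), where the model with most reads runs from 87321801 to 87399792 in mm9 and the short model used for its level from 87322356 to 87378094. Over the short model it measured 423 RPKM at CT23, 361 at CT29, 501 at CT35, 591 at CT41, 491 at CT47, 466 at CT53, 404 at CT59 and 380.0 at CT65. The highest library, CT41, had the phase CT17, and the other library of that phase, CT65, was the second lowest. The peak of the fitted course was 1.15 times its trough (log2 0.21, SE 0.27, adjusted p = 0.897). Over the long model all 8 libraries lay between 44.6 RPKM (CT65) and 55.5 RPKM (CT41).

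Ghr, the growth hormone receptor, lies on chromosome 15 (minus strand), where the model with most reads runs from 3267760 to 3533230 and the short model from 3291029 to 3533188. Over the short model it measured 153 RPKM at CT23, 173 at CT29, 194 at CT35, 127 at CT41, 132 at CT47, 157 at CT53, 188 at CT59 and 144 at CT65. Both CT11 libraries were above the other 6 libraries, a pattern that 15.8% of all genes tested showed in one direction or the other. The peak was fitted at 8.76 h (SE 1.68) with a 1.42-fold difference (adjusted p = 0.467). The longer model, which includes the transmembrane and intracellular parts, also had its highest values at CT35 (78.7 RPKM) and CT59 (77.1 RPKM). Its fitted log2 difference was 0.33 in place of 0.51 (limma unadjusted p = 0.336 in place of 0.116). The short model uses the junction between positions 3338714 and 3532999, which held 4 reads, whereas that between 3338714 and 3407929 held 903. Of these 903 reads 513 were from CT35, and their part in the CT35 level was not tested.

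Insr, the insulin receptor, lies on chromosome 8 from 3150922 to 3279617 (minus strand, 21 exons). It measured 6.25 RPKM at CT23, 10.4 at CT29, 7.24 at CT35, 5.55 at CT41, 6.38 at CT47, 7.04 at CT53, 8.56 at CT59 and 5.57 at CT65. Both CT17 libraries were below the other 6, as either above or below in 15.6% of all genes tested. The fitted peak was at 6.80 h (SE 1.36) and the difference 1.57-fold (log2 0.65, SE 0.23, unadjusted p = 0.0492, adjusted p = 0.331).

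The adaptors Irs1 and Irs2, which carry the signal of the receptor to PI3 kinase, were the genes of lowest level. Irs1 measured 2.67 RPKM at CT23, 2.07 at CT29, 1.43 at CT35, 2.12 at CT41, 2.72 at CT47, 2.13 at CT53, 1.79 at CT59 and 2.25 at CT65, from 193 to 321 reads a library. Both CT23 libraries were above the other 6, as either above or below in 5.64% of all genes. Both CT11 libraries were below the other 6, as either above or below in 15.8%. The fitted peak was at 22.70 h (SE 1.25) with a 1.52-fold difference (unadjusted p = 0.0320, adjusted p = 0.274). Without CT35, where Irs1 was lowest, the log2 difference was 0.50 in place of 0.60. Irs2 measured 3.18 RPKM at CT23, 2.92 at CT29, 1.70 at CT35, 4.41 at CT41, 2.98 at CT47, 4.85 at CT53, 3.16 at CT59 and 3.86 at CT65. Its CT35 library was below all others, and the libraries of CT5, at 2.92 and 4.85 RPKM, spanned those of CT17 (adjusted p = 0.836). Irs2 shared 4.04% of its exon bases with a model on the opposite strand, and reads of the strands could not be separated.

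Foxo1, the insulin-inhibited transcription factor, lies on chromosome 3 from 52072259 to 52154031 (plus strand). Its level was 12.6 RPKM at CT59 and 7.78 to 9.63 RPKM in the other 7 libraries. CT35, of the same phase as CT59, measured 8.20 RPKM, and the fitted course differed 1.21-fold (log2 0.27, SE 0.24, adjusted p = 0.814). Without CT59 the log2 difference was 0.022, with a peak at 16.62 h in place of 11.30 h, and without CT35 it was 0.47.

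Igfbp1, an IGF-binding protein that insulin represses, lies on chromosome 11 from 7097790 to 7102549 (plus strand, 4 exons) and varied most among the 10 genes. It measured 2.32 RPKM at CT23, 5.63 at CT29, 12.6 at CT35, 10.9 at CT41, 2.70 at CT47, 10.5 at CT53, 7.83 at CT59 and 3.65 at CT65, from 46 reads at CT23 to 439 at CT35. Both CT23 libraries were below the other 6, as either above or below in 5.64% of all genes. The exact Poisson 95% intervals of CT23 (1.70 to 3.10 RPKM) and CT35 (11.5 to 13.9 RPKM) lay apart. The highest library was 5.43 times the lowest. The fitted peak was at 10.46 h (SE 0.97) and the difference 3.52-fold (log2 1.82, SE 0.46, unadjusted p = 0.00722, adjusted p = 0.140). Without CT41 the adjusted p was 0.0375 and the peak 9.04 h, and without CT23 the adjusted p was 0.423.

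Igfbp2, a binding protein that fasting is known to raise, lies on chromosome 1, where the model with most reads runs from 72871077 to 72899045 and the short model from 72895273 to 72898722. Over the short model it measured 215 RPKM at CT23, 344 at CT29, 252 at CT35, 210.3 at CT41, 240 at CT47, 369.6 at CT53, 365 at CT59 and 297 at CT65. Both CT5 libraries were above both CT17 libraries (adjusted p of the 24-h component = 0.418). These phases did not overlap in 45.6% of all genes tested. Igfbp4, which holds back IGF action in many tissues, lies on chromosome 11, where the model with most reads runs from 98902558 to 98913969 and the short model from 98904911 to 98913234. Over the short model it measured 517 RPKM at CT23, 626 at CT29, 872 at CT35, 785 at CT41, 695 at CT47, 742 at CT53, 966 at CT59 and 639 at CT65. Both CT11 libraries were above the other 6, as either above or below in 15.8% of all genes (fitted peak 11.34 h, SE 1.5, 1.53-fold, adjusted p = 0.394). Igfals, which stabilises the circulating IGF complex, lies on chromosome 17 from 25015715 to 25018953 and measured 28.4 RPKM (CT29) to 43.3 RPKM (CT41). Both CT5 libraries were below the other 6, which 8.91% of all genes showed in one direction or the other (adjusted p = 0.647).

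The end of the subjective night was then set against the end of the subjective day. No gene of the 10 passed the test (1.32% of all genes tested did). The phases did not overlap in 6 of 10 genes, against 42.1% of all genes. Igfbp1 averaged 2.51 RPKM at CT23 and 10.2 RPKM at CT11 (n = 2 libraries each), a log2 difference of -1.80 (SE 0.46, limma adjusted p = 0.10). Irs1 averaged 2.70 RPKM at CT23 and 1.61 RPKM at CT11 (0.60, SE 0.20, adjusted p = 0.213), and its log2 difference was 0.49 without CT35. Igfbp4 averaged 606 RPKM at CT23 and 919 RPKM at CT11 (-0.61, SE 0.24, adjusted p = 0.314). These 3 genes were the ones with an unadjusted p under 0.05, against 12.6% of all genes, and each had the same sign on both days. edgeR called none, and DESeq2 called Igfbp1 and Irs1 (adjusted p = 0.00483 and 0.0346). Both CT23 libraries lay outside the other 6 in Igfbp1 and Irs1, against 5.64% of all genes.

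The middle of the subjective day was set against the middle of the subjective night in the same way. No gene of the 10 passed (0.64% of all genes did), and the phases did not overlap in 4 of 10 (Insr, Igfbp2, Igfals and Ghr), against 45.6% of all genes. Insr averaged 8.72 RPKM at CT5 and 5.56 RPKM at CT17, a log2 difference of 0.58 (SE 0.23, unadjusted p = 0.0283, limma adjusted p = 0.339). The single days gave 0.31 on the second and 0.85 on the first, and without CT29 the fitted value was 0.38 (unadjusted p = 0.170). Insr was the only one of the 10 with an unadjusted p under 0.05 (12.1% of all genes), and edgeR and DESeq2 called none. The median of all genes tested differed by 0.11 in this comparison, and rescaling by trimmed means (TMM) gave 0.46 for Insr (unadjusted p = 0.0809) with the median at 0.00.

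**Figure D2:**
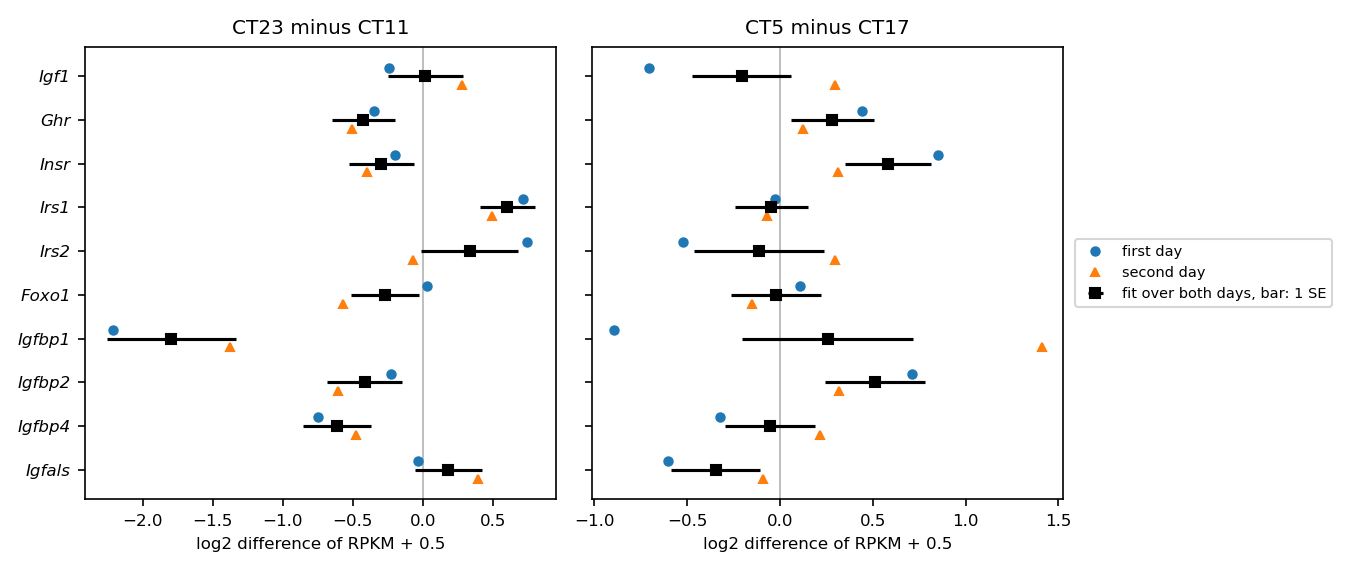
Log2 difference of RPKM + 0.5 for each gene, CT23 minus CT11 (left) and CT5 minus CT17 (right). Squares are the fit over both days with bars of 1 SE, and circles and triangles are the single differences of the first and the second day. Igfbp1 had the largest difference on the left (-1.80), and its differences on the right were 1.41 on the second day and -0.90 on the first.

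Days were compared at equal phases, the second over the first. limma called 0 of 10 genes and 0 of all genes tested (0%), with an unadjusted p under 0.05 in 0 of the 10 and in 2.37% of all genes. edgeR called 0 of all genes and DESeq2 1, none of them among the 10. The largest difference was that of Igfbp2, at 0.32 (SE 0.19, adjusted p = 1.0). The test of whether the 24-h course differed between the days also called none of the 10 (0% of all genes, 8.3% with an unadjusted p under 0.05). Igfbp1 had the smallest p of the 10 there (unadjusted p = 0.00576, adjusted p = 0.573): its CT53 library was above CT65 (10.5 and 3.65 RPKM), whereas its CT29 library was below CT41 (5.63 and 10.9 RPKM).

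Reads in introns of polyadenylated RNA served as a measure of unspliced transcript. None of the 10 genes passed the 24-h test on log2(intron RPKM + 0.05), against 1.77% of the 8802 genes tested. Igfals alone had an unadjusted p under 0.05 (10.8% of all genes): its single intron held 28 to 63 reads a library and measured 4.29 RPKM at CT23, 2.43 at CT29, 1.43 at CT35, 4.40 at CT41, 4.19 at CT47, 2.85 at CT53, 2.11 at CT59 and 2.11 at CT65. CT35 was the lowest, and CT41 and both CT23 libraries were the highest, with a fitted peak at 22.38 h (SE 1.07, 2.43-fold, unadjusted p = 0.00872, adjusted p = 0.197). CT35, the lowest, was also the library with the lowest intron share of gene reads, and without it the log2 difference was 1.04 in place of 1.28 (adjusted p = 0.395).

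The introns of Igfbp1 measured 0.569 RPKM at CT23, 0.539 at CT29, 2.16 at CT35, 1.53 at CT41, 0.335 at CT47, 1.71 at CT53, 1.1 at CT59 and 0.267 at CT65, from 12 to 160 reads. CT65 was the lowest in introns and CT23 in the transcript, and CT35 was the highest in both. The fitted peak was at 9.86 h (SE 1.55) in introns and 10.46 h in the transcript, with 3.45-fold and 3.52-fold differences (introns, limma adjusted p = 0.588). The difference between transcript and introns had no 24-h component by the test in any of the 8111 genes tested (0%). Unadjusted p-values were under 0.05 in Insr, Igfbp2, Igfals and Ghr, against 6.37% of all genes. Without CT35, the library of lowest intron share, these p-values were 0.00913 in Insr, 0.132 in Igfbp2, 0.0582 in Igfals and 0.0821 in Ghr, and the log2 difference of Igfbp2 was 0.71 in place of 1.07. Introns of Insr, Igf1, Ghr and Igfbp4 contain exons of other models. With introns free of exons the unadjusted p of Ghr was 0.295 in place of 0.0392, and that of Insr 0.0491 in place of 0.0401. In Ghr these introns held 37 to 60 reads a library, against 1882 to 4120 in all its introns, so most intron reads were lost with the exons.

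**Figure D3:**
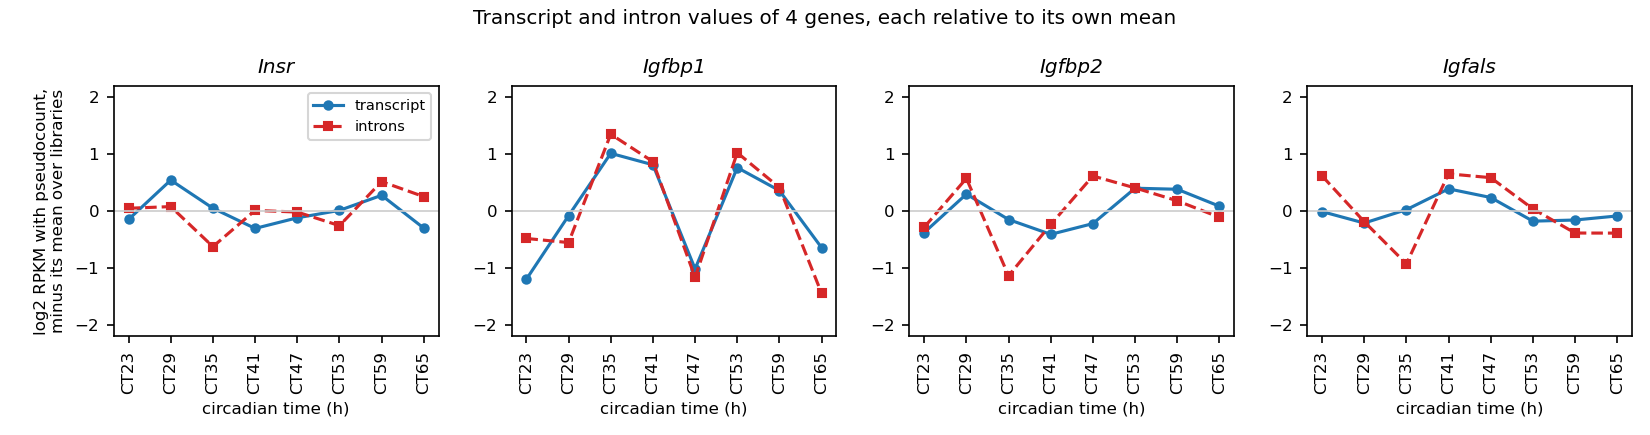
Log2 of transcript RPKM + 0.5 (circles) and intron RPKM + 0.05 (squares), each minus its mean over the 8 libraries, for 4 genes by circadian time in hours. In Igfbp1 both lines are low at CT47, but the intron line is lowest at CT65 (0.267 RPKM) and the transcript line at CT23, and in Insr, Igfbp2 and Igfals the intron line is lowest at CT35.

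Junction reads showed which forms of 3 genes the libraries held. The 10 genes had 78742 junction reads in all, and 21 splice choices had at least 20 reads on the less used side. Shares carry Wilson 95% intervals, which cover counting error only, since PCR copies were not marked. The 36-base exon of Insr, which lies at 3181702 to 3181737 on chromosome 8 in mm9 and is missing from the transcript models, was joined by 106 reads on one side and 78 on the other over the 8 libraries, and 2 reads skipped it. This exon distinguishes the B form of the receptor, the main form of liver, from the A form. A second choice in Insr, between acceptors 3 bases apart, used the minor site in 28 of 127 reads (22.0%, 15.7 to 30.0).

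Igf1 transcripts start in exon 1 or exon 2, and the exon 2 start is known to respond more to growth hormone. Of 6855 reads into exon 3, 53.8% came from exon 2 and 38.6% from the main end of exon 1. Exon 2 was also joined from upstream, by 121 reads at the most used such junction, so not every exon 2 read marks a start there. The exon 2 share was 51.1% at CT23, 43.6% at CT29, 51.6% at CT35, 65.1% at CT41, 50.1% at CT47, 55.5% at CT53, 54.7% at CT59 and 53.3% at CT65. CT41, also the highest in Igf1 level, had an interval (62.0 to 68.0%) above those of the other 7 libraries. CT65, at the same phase on the second day, did not. The short model used for the Igf1 level starts beyond exon 1, spans exon 2 and stops with the 52-base exon. Reads of exon 2 can thus enter both the level and the share, which are not separate observations. Their part in the CT41 level was not tested. Inclusion of the 52-base exon, which leads to the Eb end of the precursor in rodents, was 32.2% (CT23) to 40.1% (CT35) of reads leaving the exon before it. Counted on the other side, as a share of reads into the last exon, it was 22.9% (CT65) to 36.1% (CT29), so the sides differed in level and in their extreme libraries.

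Ghr makes the membrane receptor or, by ending in another exon, the secreted growth hormone-binding protein. The short form took 2118 of 2357 reads at this choice (89.9%, 88.6 to 91.0), from 85.7% at CT41 to 94.6% at CT65. The junction before the choice had 2065 reads, and the junctions further along the receptor form had 165 and 294. The short-form exon lies at 3277525 to 3277686 and the next receptor exon at 3275898 to 3275988 on chromosome 15. The junction between positions 3338714 and 3407929 near the start of Ghr held 513 reads at CT35 and 42 to 73 in each other library.

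**Figure D4:**
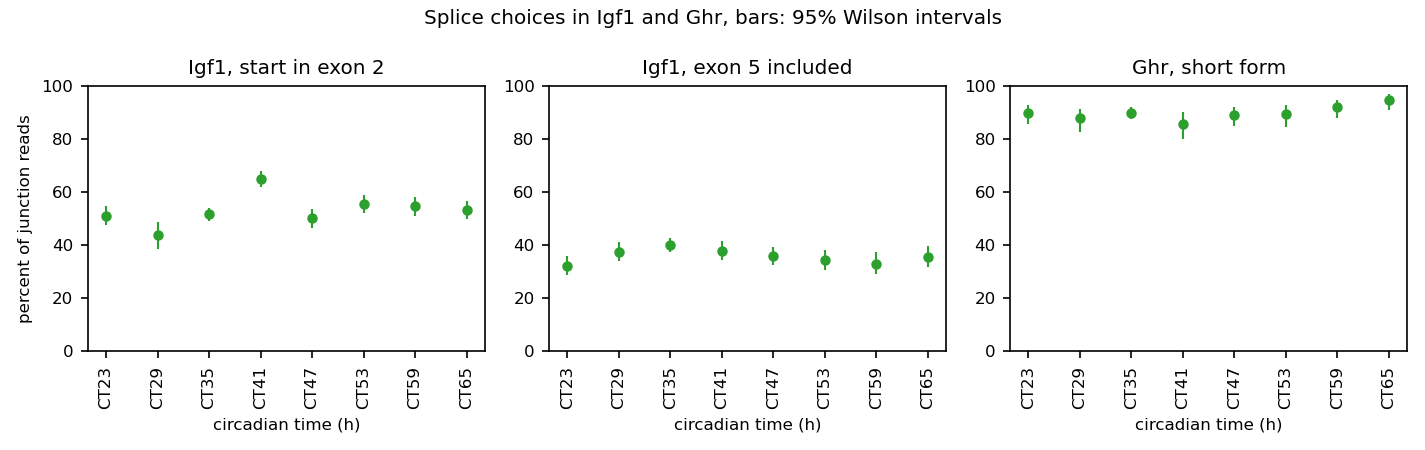
Percent of junction reads (vertical axes, 0 to 100) that started Igf1 in exon 2, included the 52-base exon of Igf1, or ended Ghr in the short form, by circadian time in hours, with Wilson 95% intervals as bars. The Igf1 start share was 65.1% at CT41 and 43.6 to 55.5% elsewhere.

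For the members of smallest p the genes with the most similar course over the 8 libraries were listed as a description, among genes with a mean of at least 5 RPKM. For Igfbp1 these were Dnajc5 (Pearson r = 0.954), Rdh9 (0.951) and 1700018L02Rik (0.938), out of 5974 genes compared. For Irs1 they were Bcl2l12 (0.982), Rpl10 (0.975) and Tspan14 (0.971). The values share their libraries and depth, and none of the 6 genes passed the 24-h test.

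Wider lists of the pathway were read from the same fit, in which 1.84% of all genes were called. None was called among 12 tested genes of the growth hormone axis and other receptors, 4 other binding proteins, 32 genes of the adaptors and the PI3K-AKT-mTOR cascade, and 27 negative regulators. Unadjusted limma p-values were under 0.05 in 6, 0, 5 and 8 of them in the same order, against 15% of all genes. Prlr, the prolactin receptor, ranged from 19.9 to 51.0 RPKM and Igfbp7 from 25.4 to 36.7 RPKM. Akt2, the main AKT of liver, ranged from 31.9 to 63.1 RPKM, and Ceacam1, which promotes insulin clearance, from 40.7 to 80.3 RPKM, both lowest at CT35.

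Among 12 other FOXO factors and their regulators, Foxo3 was called. It measured 3.83 RPKM at CT23, 7.48 at CT29, 10.0 at CT35, 5.33 at CT41, 3.92 at CT47, 7.57 at CT53, 9.15 at CT59 and 4.49 at CT65, with a 2.52-fold course that peaked at 9.30 h (SE 0.59, limma adjusted p = 0.0182). Of 18 genes known to be raised by FOXO or fasting, 4 were called. Pck1, a rate-limiting enzyme of gluconeogenesis (5.49-fold, peak 9.37 h), Angptl4, which blocks lipoprotein lipase (3.12-fold, 8.80 h), and Cpt1a, the gate of mitochondrial fatty acid oxidation (2.9-fold, 8.61 h), peaked between the middle and the end of the subjective day, and Insig2, which restrains sterol synthesis (3.70-fold, 0.55 h), at its beginning. G6pc, the last enzyme of glucose release, was not called and ranged from 63.3 to 88.2 RPKM.

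Of 18 genes known to be raised by insulin or feeding, 6 were called. They included Ppp1r3c and Ppp1r3b, glycogen-targeting subunits of protein phosphatase 1 (6.03-fold with a peak at 21.66 h, and 3.44-fold at 17.53 h), Pklr, the liver pyruvate kinase (2.75-fold, 16.54 h), and Lpin1, a phosphatidate phosphatase that fasting is also known to raise (13.9-fold, 10.98 h). Fasn, the fatty acid synthase, was not called (2.44-fold, adjusted p = 0.213).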

How the data were processed

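Values were read for 8 liver libraries. The build was mm9, per the submitters' processing notes. Not given in the sources used here are the version of the aligner, the read length and the strand setting. The deposited quantification tables give a lower and an upper value per transcript, exon and intron which the file headers name min and max without a unit. They scale as RPKM, computed by the authors. The deposited junction tables give counts of reads per splice junction, per the file headers from RUM. Lower values were whole multiples of 1 read, within 0.1 read beside the rounding of the tables, for 99.4 to 99.8% of transcripts above 0, which gave reads and depth. Each gene was represented by the model of largest summed lower value (RefSeq or Vega names; 79845 of 115699 transcripts). Genes with at least 20 reads in at least 2 libraries were fitted in limma 3.58.1 (trend, robust) on log2(RPKM + 0.5). The 24-h test left 5 residual degrees of freedom, the day test 3 and the interaction 2. edgeR 4.0.16 and DESeq2 1.42.0 on the recovered reads were alternatives, since the tables hold RPKM and not the counts that a count test needs. The levels of exon rows were not used, but their positions served to find introns free of exons and exon bases shared with other models. Fits were tested on simulated data. The members, lists and tests were chosen with earlier results of these data known. Named were all 10 members and, per list, up to 4 called genes and examples of high level that were not called.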

Additional observations from a re-analysis of the deposited data

Results flagged for a closer look

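In Igfbp1 the difference of CT5 minus CT17 had opposite signs on the 2 days, each larger than 0.3 on the log2 scale. It was 1.41 on the second day (CT53 minus CT65) and -0.90 on the first (CT29 minus CT41). The limma test of a difference between the days gave an unadjusted p of 0.00576 and an adjusted p of 0.573 over all genes. Without CT23, CT29 or CT35 that adjusted p was 0.00505, 0.00435 and 0.00285, in fits with a single residual degree of freedom before moderation that also called 633, 250 and 102 of all genes, against 0 with all libraries. Without CT41, CT47, CT53, CT59 or CT65 it was 0.302, 1.0, 0.754, 0.607 and 0.894. The values rest on 77 to 199 reads a library.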

How the results depend on the processing

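Of 377 alternative values of 23 single results, 367 kept their direction and their side of the threshold, 8 were newly called (7 for Igfbp1, under DESeq2 and without single libraries, and 1 for Irs1 under DESeq2) and 2 turned. The 24-h course of Irs2 turned without CT35 (log2 0.19, with 0.19 to 0.66 over the libraries left out) and that of Igf1 without CT41 (0.038, with 0.038 to 0.48).

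Among the 10 genes, DESeq2 called 1 for the 24-h component and 2 for CT23 against CT11. Leaving out single libraries called 0 to 1 for these and for the interaction. Over all genes, the 201 24-h calls became 580 with DESeq2, 362 with the longest transcript, 355 with the transcript of most reads (chosen after seeing the data), 8 with no filter and 89 to 257 without single libraries. A term for the day as a block gave 142. For CT23 against CT11 the 144 calls became 359, 227, 230 and 9 in the same order, and 32 to 158 without single libraries. For CT5 against CT17 the 70 became 209, 145, 149 and 8, and 5 to 165. The day comparison gave 1 with DESeq2 and 0 to 1 without single libraries. The interaction gave 10 with DESeq2, 6 with the longest transcript, 3 with the transcript of most reads and 0 to 633 without single libraries. For introns the 156 calls became 9 with no filter and 82 to 146 without single libraries. The exon to intron difference gave 1 with no filter and 3 with introns free of exons (also chosen after seeing the data). Splice choices numbered 21 at 20 reads and 8 at 50. The causes were not tested. Reads were fewest in Irs1, Irs2 and Igfbp1, with 46 reads in the lowest library of Igfbp1.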
